A study of Mus musculus with 4 samples.

Results

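The genes described here encode the core of cytokine signalling in T cells: 3 Janus kinases (Jak1, Jak2 and Jak3), 4 signal transducers and activators of transcription (Stat3, Stat5a, Stat5b and Stat6) and 3 feedback inhibitors (Socs1, Socs3 and Cish). They were listed by name, and a probe set was taken as a member where the platform annotation gave it exactly one of these symbols. This gave 21 probe sets for the 10 genes, of 34945 probe sets with a single gene and 18193 genes in the series. Jak3, Socs1 and Cish had 1 probe set each, Jak2, Stat5a, Stat5b and Stat6 had 2, Jak1 and Socs3 had 3, and Stat3 had 4. A further 2 probe sets annotated to Jak3 together with another gene were left out.

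The samples were CD4 single-positive thymocytes of mice on the B6 background, sorted as negative for CD25, the CD1d-PBS57 tetramer and the gamma delta T cell receptor. Both groups carried floxed Cul3 alleles (Cul3fl/fl), the gene of a ubiquitin ligase scaffold. Mice without CD4-Cre were labelled LM and mice with CD4-Cre were labelled KO, with 2 arrays in each group. CD4-Cre is driven by regulatory sequence of the Cd4 gene and acts before thymocytes become single positive. No Cre-bearing mice with unfloxed Cul3 were among the samples, so an effect of Cre and an effect of losing Cul3 cannot be told apart. The sources used here give no age or sex and do not say whether an array holds RNA of 1 animal or of several. They also do not say that replicates came from separate animals, and p-values then measure only the spread between these arrays, which may be technical. Below, the LM pair and the KO pair are the 2 arrays of each label, replicate 1 first.

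A cytokine that binds its receptor brings receptor-bound Janus kinases together, and these phosphorylate the receptor tails and the STAT proteins docked there. Phosphorylated STATs form dimers, enter the nucleus and activate genes, among them those of the SOCS family, whose products shut the receptor down again. In thymocytes the pathway is best known for carrying the survival signal of interleukin-7 through Jak1, Jak3 and Stat5, and Socs1 is known there as a brake on it. Jak1 pairs with most interleukin receptors of T cells, Jak3 with the common gamma chain alone, and Jak2 with receptors such as that of interferon gamma. SOCS proteins also carry a SOCS box, which joins the Elongin and Cul5 ubiquitin ligase, a relative of the Cul3 ligases.

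STAT dimers bind the palindrome TTCNNNGAA, which reads the same on both strands. It was sought in the RefSeq promoter windows of GRCm38.p6, which run from 250 bases before a start of transcription to 50 bases after it. All 10 genes matched, with 12 windows. The motif was present in 2 of these 12 windows, those of Cish and Socs3, and in 8.30% of all 32851 windows. Counted by gene it was present in 2 of 10 members and in 9.55% of 27025 genes. Both stretches are shown because Cish and Socs3 are the feedback genes with a probe set above background on every array, and capitals mark the motif. The Cish stretch lies at chr9:107296599-107296682 on the plus strand and holds the motif at positions 1 and 12 from the start of transcription, while 0.457% of all windows hold it at least 2 times. The Socs3 stretch lies at chr11:117969447-117969566 on the minus strand, and its motif begins 154 bases before the start (position -154).
Cish: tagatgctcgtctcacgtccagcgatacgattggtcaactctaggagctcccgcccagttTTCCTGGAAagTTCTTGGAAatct
Socs3: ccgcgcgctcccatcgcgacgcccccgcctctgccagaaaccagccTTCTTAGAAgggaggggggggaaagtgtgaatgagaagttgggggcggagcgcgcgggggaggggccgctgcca
A match describes the sequence and is not evidence that a STAT binds there in these cells.

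None of the JAK, STAT or SOCS genes differed between the genotypes at the threshold, an adjusted p of 0.05 in limma. Of the 10 genes 9 were bright enough to be tested, and the count called was 0 in either direction, where 0.275% of the 11255 genes tested were called, 0.133% as higher and 0.142% as lower. At an unadjusted p below 0.05 the members counted 0 of 9, against 8.40% of all genes tested. Each gene was represented by its brightest probe set. Differences are KO minus LM on the quantile-normalized log2(intensity + 16) scale, which understates changes of dim genes. The 9 differences ran from -0.25 for Socs3 to 0.13 for Stat3, with 4 above and 5 below 0. Their median was -0.018, beside 0.002 over all genes tested, and their median size without regard to sign was 0.12, beside 0.17 over all genes. Their median standard error was also lower, 0.16 beside 0.22 over all genes.

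Intervals in this fit rest on the spread between these arrays, which may be technical, so they may not bound a difference between animals. Socs1 was not tested and has no interval. The 95% intervals of the 9 genes, each taken alone, reached from 55.8% of the LM level at the lowest to 178% at the highest, so none of them included a 2-fold change in either direction. For Jak1, Jak2, Stat3 and Stat6 the lower bounds were 85.0%, 85.5%, 85.9% and 85.0%. For Stat5a, Stat5b, Jak3, Cish and Socs3 they were 77.9%, 67.5%, 66.2%, 61.1% and 55.8%. These bounds hold for the brightest probe sets only. In the fit over probe sets, further ones of Jak1 had lower bounds of 65.5% and 74.2%. Those of Stat3 had 58.6%, 79.0% and 83.3%, that of Stat6 had 81.3% and that of Jak2 had 86.3%. In 9 of 9 member genes the gap between the 2 arrays of 1 group was larger than the difference between the groups, as it was for 75.0% of all genes tested.

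**Figure D1:**
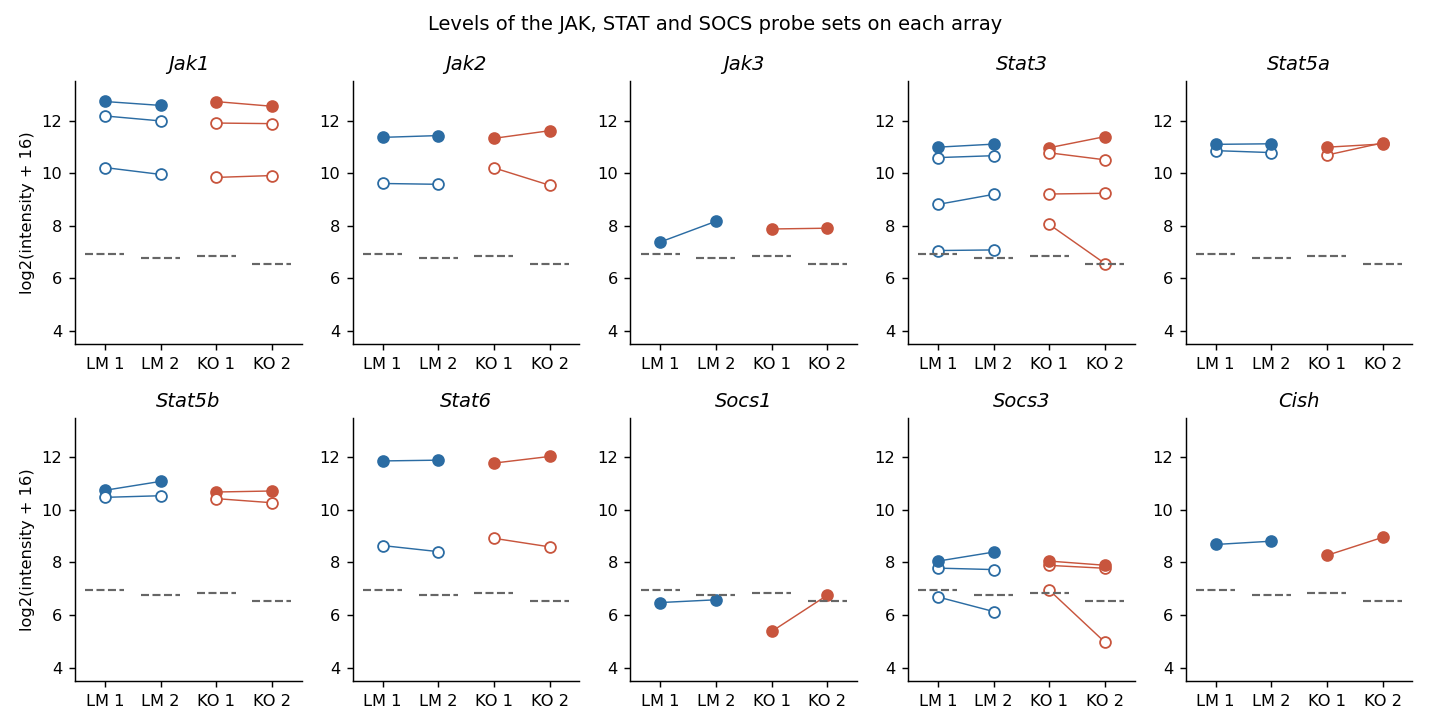
Level of every probe set of the 10 genes on each of the 4 arrays, as quantile-normalized log2(intensity + 16); blue is LM and red is KO, filled circles are the brightest probe set of a gene and open circles the others, lines join the arrays of a group, and dashed lines are the background level of each array. The only probe set of Socs1 and the third of Socs3 lie above background on 1 array each, while the 19 tested probe sets lie above it on every array.

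Among the kinases, Jak1 had the smallest standard error of all member genes. Its brightest probe set read intensities of 6478 and 6345 in the LM pair and 6830 and 5817 in the KO pair. The groups overlapped, with the highest and the lowest deposited intensity both in the KO pair. The difference was -0.018 ± 0.099 (SE, n = 2 arrays per group, limma adjusted p = 0.990). The other 2 probe sets of Jak1 lay lower on both KO arrays. They read 4493 and 4162 against 3845 and 3694 for 1433805_at, and 1173 and 975 against 892 and 943 for 1433803_at. In the fit over all 21795 probe sets above background these differed by -0.19 ± 0.11 and -0.21 ± 0.19 (SE, limma adjusted p = 0.759 and 0.861), so neither passed.

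Jak2 RNA did not separate the genotypes. Intensities of its brightest probe set were 2588 and 2792 in the LM pair and 2554 and 3070 in the KO pair. The KO arrays held both extremes, and the difference was 0.075 ± 0.14 (SE, n = 2, adjusted p = 0.944). The second probe set, 1421065_at, read 776 and 743 in the LM pair and 1160 and 730 in the KO pair. Its difference of 0.28 ± 0.23 was the largest of all member probe sets and came from KO replicate 1 alone, since KO replicate 2 was the lowest of the 4 arrays. Without KO replicate 1 it was -0.052.

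Jak3, the kinase of the common gamma chain, was measured by a single dim probe set. It read 156 and 261 in the LM pair and 216 and 230 in the KO pair. Both KO values lay between the LM values. The difference was 0.12 ± 0.33 (SE, n = 2, adjusted p = 0.968), and its interval, from 66.2% to 178% of the LM level, was the widest of the kinases.

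Stat3, the factor downstream of interleukin-6 and interleukin-21, had 4 tested probe sets with differences of 0.13, 0.24, 0.22 and 0.012, all positive and none called. The brightest read 1997 and 2199 in the LM pair and 2003 and 2630 in the KO pair, a difference of 0.13 ± 0.16 (SE, n = 2, adjusted p = 0.900). Only KO replicate 2 stood above the LM values. The dimmest, 1424272_at, read 120 and 111 in the LM pair and 246 and 84 in the KO pair. Its arrays labelled KO differed from each other by 1.49 on the log2 scale, the widest gap within a group among tested member probe sets, and its interval alone included a 2-fold rise. On 1459961_a_at both KO arrays (570 and 591) lay above both LM arrays (445 and 560), with a difference of 0.22 ± 0.22 (SE, adjusted p = 0.885).

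Stat5a and Stat5b, near-identical factors that carry interleukin-2 and interleukin-7 signals, are neighbours on the chromosome together with Stat3, with no other protein-coding gene between the 3 in the RefSeq table. The brightest Stat5a probe set read 2149 and 2219 in the LM pair and 2030 and 2187 in the KO pair, a difference of -0.058 ± 0.14 (SE, n = 2, adjusted p = 0.964). The second, 1450259_a_at, differed by 0.10, and the 2 therefore disagreed in sign. Stat5b was the only member gene whose groups did not overlap. Its brightest probe set read 1692 and 2160 in the LM pair and 1624 and 1649 in the KO pair, and LM replicate 2 stood well above the other 3. The difference was -0.22 ± 0.16 (SE, n = 2, adjusted p = 0.813), or -0.046 without LM replicate 2. The second probe set of Stat5b read 1407 and 1481 against 1359 and 1209, also without overlap, with a difference of -0.16 ± 0.16 (SE, adjusted p = 0.889). Groups without overlap were found for 1 of 9 member genes and 37.4% of all genes tested, and for 5 of 19 member probe sets and 36.7% of all probe sets tested. Probe sequences were not used here, so how well the probes separate RNA of the 2 Stat5 genes is unknown.

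Stat6, the factor of interleukin-4 and interleukin-13 signalling, read 3637 and 3874 in the LM pair and 3528 and 4116 in the KO pair. The KO arrays held both the lowest and the highest value. The difference was 0.029 ± 0.12 (SE, n = 2, adjusted p = 0.983). On the dimmer 1421708_a_at the values were 397 and 313 in the LM pair and 465 and 374 in the KO pair, a difference of 0.23 ± 0.24 with overlapping groups.

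Of the 5 probe sets of the feedback inhibitors, 2 were too dim to test. Socs1, which blocks Janus kinases directly, read 73.9 and 73.5 in the LM pair and 26.4 and 98.5 in the KO pair. The background level was set by olfactory and vomeronasal receptor probe sets after normalization. Converted back to intensity it was 106, 92.3, 98.4 and 77.7 on LM 1, LM 2, KO 1 and KO 2. The Socs1 readings are deposited intensities, so the scales differ, and tests against background used normalized values. Socs1 passed the background level on KO replicate 2 only and was not tested, and no fold is given.

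Socs3, the inhibitor of receptors that signal through Stat3, had 2 probe sets above background on every array, both of a type that can share sequence with other transcripts. The brighter read 256 and 309 in the LM pair and 247 and 228 in the KO pair. It differed by -0.25 ± 0.27 (SE, n = 2, adjusted p = 0.883), and both deposited LM values lay above both KO values, while after normalization LM replicate 1 and KO replicate 1 were level at 8.05. The other read 212 and 187 against 218 and 211 and differed by 0.077 ± 0.29, so the pair disagreed in sign. The third, 1416576_at, read 89.0 and 49.5 in the LM pair and 107 and 16.7 in the KO pair. It passed background on KO replicate 1 only and was not tested.

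Cish, whose promoter stretch is shown above and which is known as a gene induced through Stat5, read 408 and 421 in the LM pair and 289 and 482 in the KO pair. The LM arrays lay close together, and the KO arrays enclosed them on both sides. The difference was -0.13 ± 0.26 (SE, n = 2, adjusted p = 0.949), with an interval from 61.1% to 136% of the LM level. Without KO replicate 1 the difference was 0.21 and without KO replicate 2 it was -0.48.

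**Figure D2:**
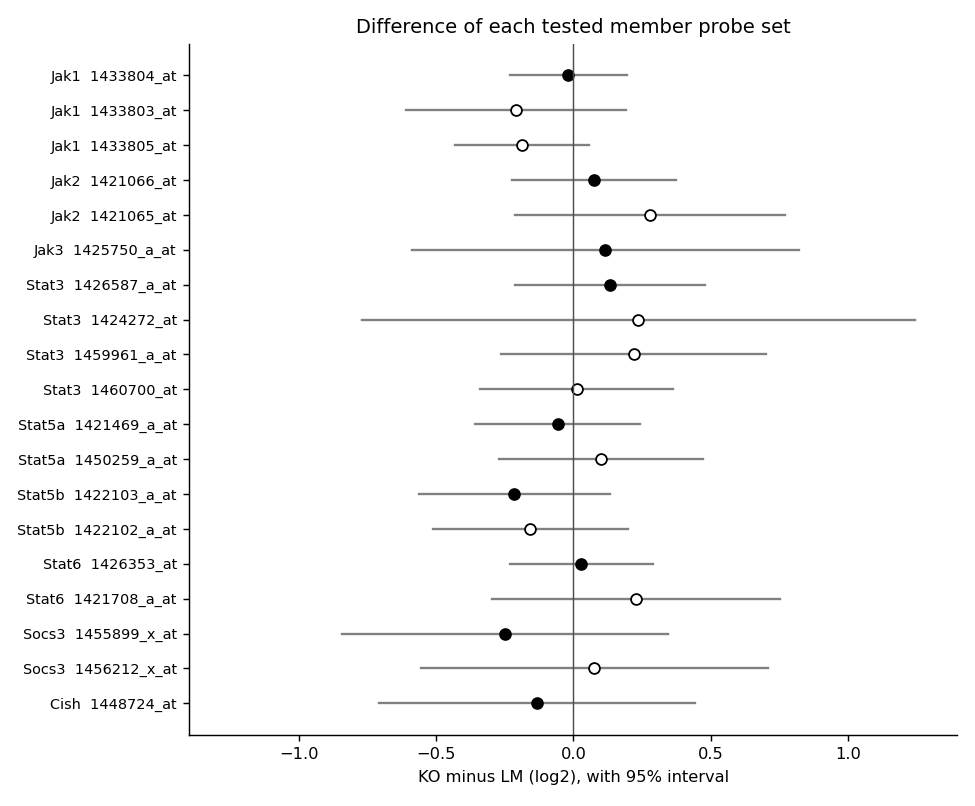
KO minus LM difference on the log2 scale for each of the 19 member probe sets tested, with the 95% interval from the limma fit over all probe sets; filled circles are the brightest probe set of a gene. Every interval includes 0, and the interval of Stat3 probe set 1424272_at is the widest.

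Over the 19 tested probe sets the count called was 0, beside 0.229% of all 21795 probe sets tested, and 0 lay at an unadjusted p below 0.05, beside 7.97%. Adjusted p-values ran from 0.759 to 0.997. The differences were positive for 11 and negative for 8. Probe sets of 1 gene had the same sign for Jak1, Jak2, Stat3, Stat5b and Stat6, and opposite signs for Stat5a and Socs3. They read the same RNA, so they are no replicates of each other.

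**Figure D3:**
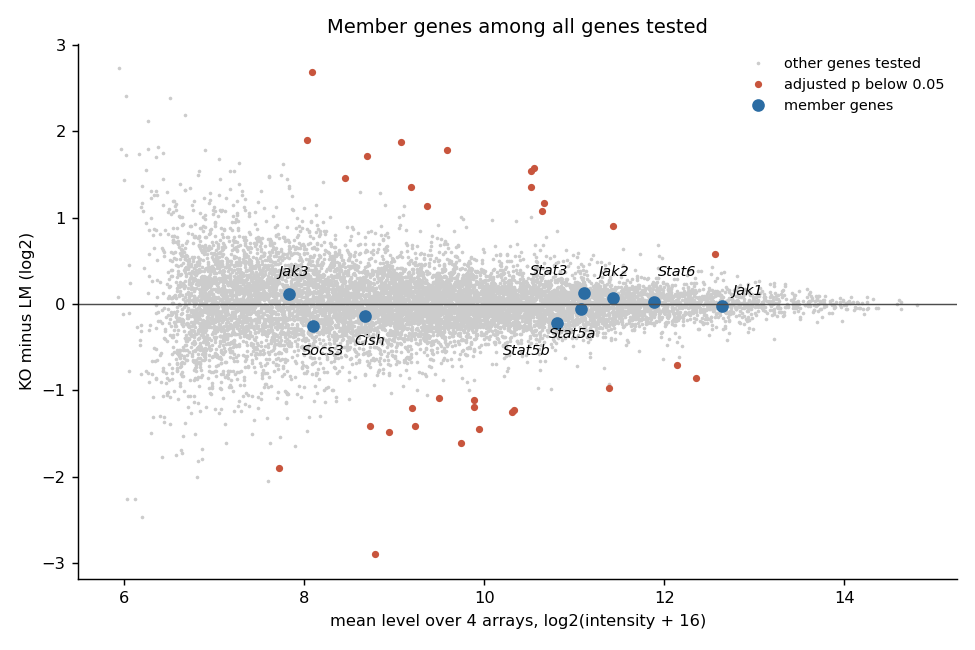
KO minus LM difference on the log2 scale against the mean level over the 4 arrays for all 11255 genes tested; blue circles are the 9 tested member genes and red points the genes with an adjusted p below 0.05. The member genes lie between -0.25 and 0.13, inside the cloud of other genes at their level.

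Single arrays turned the direction of most member values. With 1 array left out, 7 of the 9 genes crossed 0. Jak3 had the widest range, from -0.28 to 0.51, followed by Cish, from -0.48 to 0.21. Stat5b, from -0.38 to -0.046, and Socs3, from -0.42 to -0.078, stayed below 0 in each of these fits. Jak3 turned with the LM arrays, whose values lay farthest apart. The smallest adjusted p of any member gene or probe set under any alternative was 0.365.

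**Figure D4:**
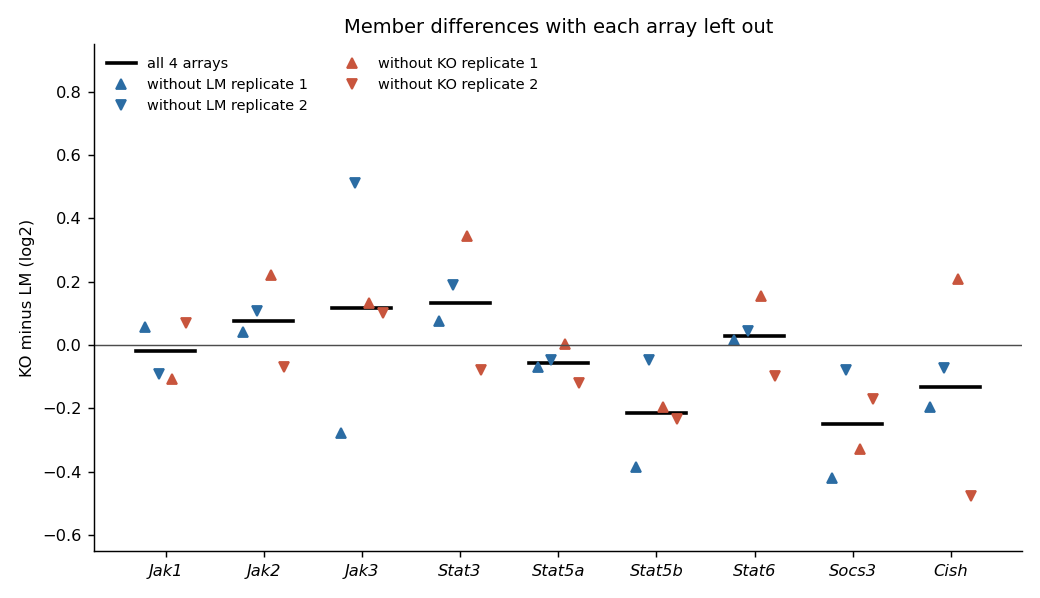
KO minus LM difference on the log2 scale of the 9 tested member genes; black bars are the fit to all 4 arrays and triangles the fits with 1 array left out, blue for an LM array and red for a KO array. Stat5b and Socs3 keep their sign in all 4 such fits, and the other 7 cross 0.

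The rest of the pathway also held no called gene. Lists of further pathway genes comprised 99 genes without the members, of which 92 had a probe set and 65 were tested. Of these 0 rose and 0 fell in limma, and 8 lay at an unadjusted p below 0.05, that is 8 of 65 beside 8.40% of all genes. Their median difference was 0.048. The common gamma chain gene Il2rg is not described.

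Of the other JAK, STAT and SOCS genes and their inhibitors, 19 were tested, with a median of 0.011. The count called was 0, beside 0.275% of all genes tested. At an unadjusted p below 0.05 lay 1 of 19, beside 8.40% of all genes tested. Stat4, the factor of interleukin-12 signalling, had the largest difference among the 19. It read 544 and 472 in the LM pair and 954 and 978 in the KO pair. The groups were well apart, with a difference of 0.91 ± 0.19 (SE, n = 2, limma adjusted p = 0.103). The next smallest p-values belonged to the phosphatase Ptpn2 (0.25), which dephosphorylates Janus kinases and STATs, and the STAT inhibitors Pias3 (0.73) and Pias1 (-0.27), with adjusted p-values of 0.596, 0.707 and 0.791. With probe set means Ptpn2, Pias3 and Pias1 were at -0.016, 0.21 and -0.079. Pias3 was below background on LM replicate 1 and ran from 0.23 to 1.22 with 1 array left out.

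Of the receptor chains that bind a Janus kinase, 19 of 28 with a probe set were tested and 0 were called, with a median of 0.075. At an unadjusted p below 0.05 lay 4 of 19, beside 8.40% of all genes tested. Il2ra, which encodes CD25, the marker the sort excluded, read 611 and 540 in the LM pair and 963 and 949 in the KO pair. It differed by 0.72 ± 0.19 (SE, n = 2, adjusted p = 0.221). Ifngr1, the ligand-binding chain for interferon gamma, differed by 0.63 (adjusted p = 0.427); leaving out LM replicate 1 gave 0.35. Il27ra differed by -0.39 (adjusted p = 0.547), and leaving out KO replicate 1 gave -0.21. Il2rb, the beta chain shared by the interleukin-2 and interleukin-15 receptors, differed by 0.40 (adjusted p = 0.584).

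Few cytokine genes were detected. Of 16 with a probe set, 3 were tested and 0 called, with 1 at an unadjusted p below 0.05, beside 8.40% of all genes. Il21 read 324 and 370 in the LM pair and 471 and 635 in the KO pair, a difference of 0.64 ± 0.24 (SE, n = 2, adjusted p = 0.455). Osm, which encodes oncostatin M, differed by 0.35 (adjusted p = 0.760), and Il2, above background on 2 arrays, by 0.47 (adjusted p = 0.886). Il4, Il6, Il7, Il15 and Ifng were among those too dim to test.

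Genes known to be induced through Stat5 (13 tested, 0 called, median -0.087) had their smallest p at Il2ra. Of the 13, 1 lay at an unadjusted p below 0.05, beside 8.40% of all genes. Pim1, a survival kinase, read 1305 and 1271 in the LM pair and 1075 and 978 in the KO pair, a difference of -0.32 ± 0.17 (SE, n = 2, adjusted p = 0.685), but of 0.26 when its probe sets were averaged. Osm is also on this list, and Foxp3, the lineage factor of regulatory T cells, differed by 0.48 (adjusted p = 0.804). Genes known to be induced through Stat3 (12 tested, 0 called, median -0.064) had 5 positive and 7 negative differences. Of the 12, 3 lay at an unadjusted p below 0.05, beside 8.40% of all genes. The smallest p was that of Batf, an AP-1 family factor. Batf read 1163 and 1329 in the LM pair and 2189 and 2077 in the KO pair, a difference of 0.78 ± 0.16 (SE, n = 2, adjusted p = 0.0776). It passed the threshold with the stricter filter, without normalization, with probe set means and without LM replicate 2. Rora differed by 0.69 (adjusted p = 0.245), and Il21 and Pim1 are also on this list. The largest difference in size was negative, that of the AP-1 gene Fos, named after its values were seen. Fos read 141 and 157 in the LM pair and 19.0 and 159 in the KO pair, a difference of -1.15 ± 0.63 (SE, n = 2, adjusted p = 0.703) that came from KO replicate 1 and was -0.0030 without it.

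Genes known to be induced through Stat6 (3 tested, 0 called, median -0.13) comprised Gata3, Il4ra and Cish. Gata3 differed by -0.23, or -0.093 without LM replicate 2, and Il4ra by 0.094, or 0.014 without LM replicate 1. Of the 3, 0 lay at an unadjusted p below 0.05, beside 8.40% of all genes tested. The SOCS box partners, the Elongin and Cul5 ligase and its relatives, had 8 tested genes, 0 called and a median of 0.096. Of the 8, 0 lay at an unadjusted p below 0.05, beside 8.40% of all genes tested. The smallest p-values were those of Ube2f (0.37), which loads the ubiquitin-like protein Nedd8 onto Cul5, Cul2 (0.31), Rbx1 (0.19) and Eloc (0.081), with adjusted p-values of 0.629 to 0.895. These values moved with single choices. Ube2f was at 0.065 with probe set means, Cul2 at 0.11 and Rbx1 at 0.11 without KO replicate 2, and Eloc at 0.014 without LM replicate 1. Cul2 also turned negative with probe set means.

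**Figure D5:**
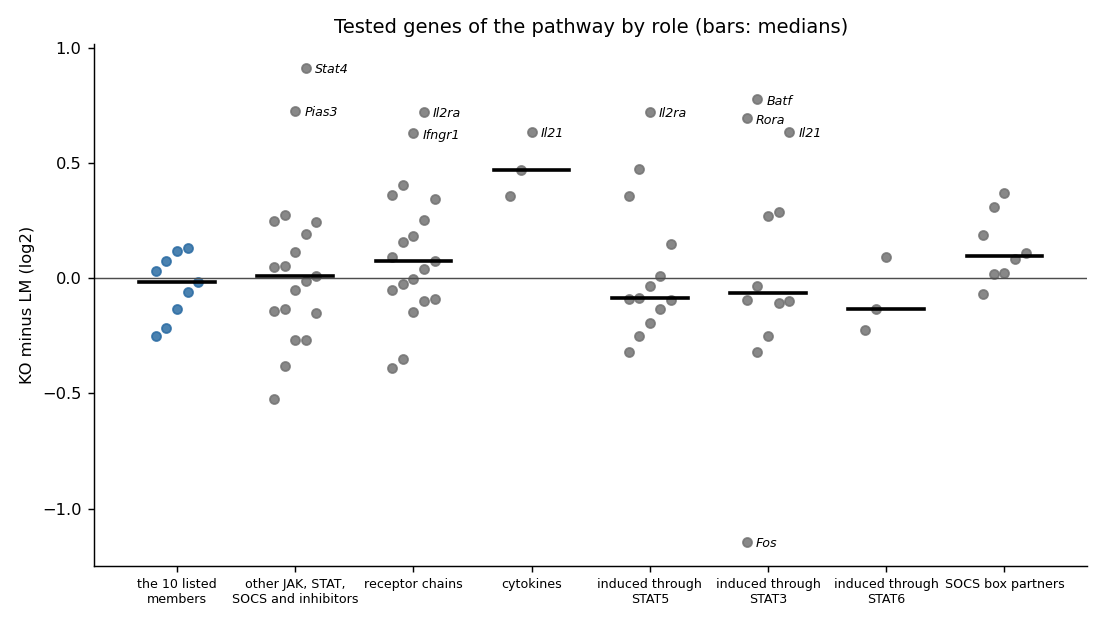
KO minus LM difference on the log2 scale of each tested gene in the listed members (blue) and in the 7 other lists by role (grey), with the median of each list as a bar; genes differing by more than 0.6 are named, and some genes stand in more than 1 list. The members lie between -0.25 and 0.13, and none of the genes shown was called.

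Features of the whole series that bear on these values were as follows. The Cul3 probe set read highest was at 5333 and 5724 in the LM pair and 5380 and 5577 in the KO pair, a difference of -0.010 ± 0.095 (SE, n = 2, limma adjusted p = 0.994), and none of its 5 probe sets was called lower. The sources used here do not place the deleted exons or the probes, so these values check nothing and the genotype rests on the labels. Defining T cell markers were bright on all arrays, with Cd3d, Cd3e, Cd3g and Cd4 differing by 0.031, 0.049, -0.051 and -0.14. B cell markers were at or near background, with 0 of 5 above it on every array. Counts above it on every array were 3 of 4 for CD8 T cells and 3 of 5 for double-positive thymocytes, which share Cd8a. They were 2 of 8 for myeloid and dendritic cells and 1 of 4 for NK and NKT cells. For gamma delta T cells and thymic stroma they were 1 of 2 and 1 of 5, and for erythroid cells 0 of 2. Cd8a differed by 0.065, and the 3 tested CD8 T cell genes ran from -0.23 to 0.36.

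Markers of regulatory T cells and of dividing cells are given beside these results. The 4 regulatory T cell genes Foxp3, Il2ra, Ikzf2 and Ctla4 were all measured above background. Differences were positive for 4 of 4, beside 5660 of all 11255 genes tested. Of the 4, 0 were called (lowest limma adjusted p = 0.221), beside 0.275% of all genes. At an unadjusted limma p below 0.05 lay 2 of 4, beside 8.40% of all genes. Foxp3 was at -0.086 without KO replicate 1. The summed intensity of the 4 genes was 3827 and 3577 in the LM pair and 5496 and 4795 in the KO pair. Ikzf2 differed by 0.49 (limma adjusted p = 0.245). The dividing cell markers Mki67 and Top2a both fell, by 0.86 and 1.44 on the log2 scale (limma adjusted p = 0.00285 and 0.00468). Neither was called without the filter (adjusted p = 0.0713) or without the eBayes trend, and Top2a differed by -0.22 when its probe sets were averaged. Their summed intensity was 8214 and 9040 against 4283 and 4599. The part of either in the values of Stat4, Il2ra, Batf or the members was not tested. In bulk RNA a different share of cells and a different level per cell cannot be told apart.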

How the data were processed

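Amplified, biotin-labelled RNA was read on 2 LM and 2 KO arrays. Values as the authors deposited them are linear intensities, 1 for each probe set, scaled to a trimmed mean of 500.0 on each array. The method of probe summary is not given in the sources used here. After leaving out 64 control probe sets, log2(intensity + 16) was quantile normalized, since array medians differed by more than 0.1 (7.28 to 7.44). A gene was its brightest single-gene probe set, tested if above the 95th percentile of 80 receptor probe sets on at least 2 arrays. Of 34945 single-gene probe sets 34741 matched the RefSeq table. KO minus LM was modelled in R 4.3.3 by lmFit and eBayes of limma 3.58.1, with an intensity trend and genotype as the sole term, over all 11255 genes and again over all 21795 probe sets. P-values are two-sided, with Benjamini-Hochberg adjustment. The fit had 2 residual degrees of freedom and borrowed 9.96. It was tried on simulated data with changes of 2 on the log2 scale in either direction. These are larger than any member difference, and smaller changes were not simulated. Tables used Python 3.11.15 and pandas 2.3.3. The members, lists and alternatives were chosen with earlier results of these data known. Genes named were the members, Cul3, from each list up to 4 by smallest p, and cell markers; genes listed as too dim were named after their values were seen. Precision is limited by the number of arrays and, for dim probe sets, by their closeness to background.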

Additional observations from a re-analysis of the deposited data

How the results depend on the processing

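No member gene or probe set was called under any alternative tried. Changing the filter or the eBayes settings, or adding the replicate number as a block, left each difference unchanged, so no sign could turn there. Over all alternatives that kept all arrays, 177 member values kept sign and side of the threshold and 3 did not. These were Stat5a with probe set means (0.021) and, with median centring, Stat6 (-0.028) and Stat3 probe set 1460700_at (-0.045). Among other named genes, probe set means turned Cul3 (0.041), Ptpn2 (-0.016), Pim1 (0.26), Cul2 (-0.24) and Cd8a (-0.029), and median centring turned Cd3d (-0.016) and Cd3e (-0.0016); the cause was not tested. With 1 array left out, 11 of 19 member values changed sign in at least 1 fit. The ranges were -0.11 to 0.070 for Jak1, -0.071 to 0.22 for Jak2, -0.28 to 0.51 for Jak3, -0.078 to 0.34 for Stat3, -0.12 to 0.0029 for Stat5a, -0.097 to 0.16 for Stat6 and -0.48 to 0.21 for Cish. Of single probe sets they were -0.052 to 0.61 for 1421065_at of Jak2, -0.51 to 0.98 for 1424272_at and -0.12 to 0.15 for 1460700_at of Stat3, and -0.13 to 0.33 for 1450259_a_at of Stat5a. Of other genes they were -0.053 to 0.032 for Cul3, -0.12 to 1.06 for Il2, -0.086 to 1.04 for Foxp3, -0.18 to 0.082 for Cd3g and -0.22 to 0.35 for Cd8a.

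The count of all genes called, 31 in limma, was 0 without the filter and 0 without the eBayes trend (1247 and 922 at an unadjusted p below 0.05), 81 with median centring, and 40 to 97 with 1 array left out. The count of probe sets called, 50, was 2 without the filter, 0 without the trend (1679 at an unadjusted p below 0.05), 77 with the stricter filter, 98 with median centring and 121 to 254 with 1 array left out. Without either LM array the spread was taken wholly from other genes, and the lone array is assumed to vary like the other group. Replicate numbers are not stated to pair the arrays, and deviations of same-numbered arrays correlated at -0.02. With the replicate number as a block 43 genes were called and 0 members.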
